A study of Mus musculus with 20 samples.

Results

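Small RNA was sequenced from mouse bone marrow cultures, and the comparison here is of cells given the lipoprotein preparation labelled eLDL with cells given LDL. It uses 8 of the 20 libraries of the series, those labelled +eLDL (4) or +LDL (4), paired within 4 cultures. The cultures were dendritic cells grown with GM-CSF and macrophages grown with M-CSF, each from wild type C57BL/6 mice and from mice of the miR-155 knockout strain B6.Cg-Mir155tm1.1Rsky/J, all 8 to 12 weeks old. Both growth factors came as hybridoma supernatant, so the medium also held other products of the hybridoma cells. The other 12 libraries, unstimulated, LPS-treated and oxLDL-treated cells of the same cultures, gave the spread for the tests and one further comparison, eLDL against oxLDL. The labels do not say what the letters e and ox stand for, and no source used here gives the lipoprotein dose or time. Each condition is 1 library, and nothing in the labels says whether the libraries of a culture came from 1 mouse or several, so the p-values below measure only the scatter between single libraries. For eLDL against LDL or oxLDL that is the scatter between wild type and knockout pairs, and for the difference between genotypes it is the scatter of that difference between dendritic cells and macrophages.

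MicroRNAs (miRNAs) are short RNAs cut from hairpin precursors. One arm of the hairpin is loaded into an Argonaute protein and pairs with messenger RNAs mainly through its seed, bases 2 to 8, so miRNAs with the same seed share many targets. Dendritic cells and macrophages take up modified low-density lipoprotein through scavenger receptors, and lipid-laden macrophages are a known component of atherosclerotic plaques. In these cells miR-155 and the miR-146 family are known to be induced by Toll-like receptor signalling, miR-33 is known to repress cholesterol export, and the let-7 family is abundant in differentiated cells.

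The let-7 family is shown first because its members lay together on the lower side under eLDL. The mature sequences are those of RefSeq (GRCm38.p6), 5′ to 3′, with the seed in capitals.
let-7a-5p: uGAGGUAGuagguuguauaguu
let-7c-5p: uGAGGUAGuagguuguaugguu
let-7f-5p: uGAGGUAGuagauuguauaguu
let-7g-5p: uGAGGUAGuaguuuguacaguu
miR-98-5p: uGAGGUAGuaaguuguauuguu
The 9 miRNAs of the family that were tested all had the seed GAGGUAG, and no other tested miRNA with a RefSeq sequence had it. Outside the seed they differed from let-7a-5p at 1 to 4 positions (let-7g-5p and miR-98-5p at 2), and a read had to match without mismatch to be counted.
Another 4 miRNAs are shown because DESeq2's Wald test called them for a difference between the genotypes.
miR-221-5p: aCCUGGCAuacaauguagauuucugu
miR-342-5p: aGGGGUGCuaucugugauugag
miR-19a-3p: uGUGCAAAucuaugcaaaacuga
miR-19b-3p: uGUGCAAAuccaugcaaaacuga
miR-19a-3p and miR-19b-3p shared the seed GUGCAAA, and no other tested miRNA had it. RefSeq held a sequence for 57 of the 60 miRNAs that the results describe most closely.

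The 4 eLDL libraries held 10.6 M to 15.9 M reads (M, 1000000 reads), and the 4 LDL libraries 10.3 M to 22.8 M. Between 42.3% and 53.6% of the reads of the eLDL libraries were assigned to miRNAs, against 45.1% to 57.6% for LDL. Levels are given as CPM, the counts of a miRNA scaled to 1000000 miRNA reads in its library. A count of 3 reads, the limit that a count of 0 allows, corresponds to 0.255 to 0.592 CPM in these 8 libraries, and covers counting error only. The haematopoietic and myeloid miRNAs were present throughout, miR-223-3p at 1545 to 3409 CPM under eLDL and 1475 to 3568 CPM under LDL, and miR-142a-3p at 410 to 841 and 395 to 909 CPM. Of the erythroid list, miR-451a-5p had 0 to 14 reads and miR-144-3p 0 to 3 in a library. The sum of that list (2 of 7 members tested), which includes miR-486-5p, was not low. It ranged from 486 to 1870 CPM under eLDL and 414 to 1900 under LDL. The liver miRNA miR-122-5p had 1 to 29 reads. The summed markers of the liver and serum list (2 of 6 members tested) ranged from 256 to 882 CPM under eLDL and 250 to 839 under LDL, and those of the stromal list (6 of 13 tested) from 167 to 4190 and 128 to 3730. The high stromal sums were those of dendritic cells, 3460 and 4190 CPM under eLDL, against 167 and 177 in macrophages. Within pairs the low lists differed most. The lymphoid sum (1 of 3 tested) was 20.9 against 12.9 CPM in wild type and 6.23 against 10.7 in knockout dendritic cells, and the endothelial sum (2 of 5 tested) 8.09 against 4.30 CPM in wild type dendritic cells. The stromal sum was 177 against 128 CPM in knockout macrophages. The mast cell and granulocyte sum (3 of 4 tested) was 2900 against 2170 CPM in wild type macrophages. Most of that sum was miR-223-3p (2763 against 2055 CPM), which is also given above as a marker of the labelled cells. The part of other cells in the results below was not tested. In bulk RNA, fewer cells of a type and less of the RNA per cell cannot be told apart.

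The first question was which miRNAs differed between eLDL and LDL over the 4 cultures. No miRNA did by edgeR's quasi-likelihood test with Benjamini-Hochberg adjustment at 0.05 (0 of 378 tested, 0%), and the smallest adjusted p was 0.869. At an unadjusted p under 0.05 there were 17 miRNAs (4.5% of those tested), 12 higher and 5 lower, where 18.9 are expected if no miRNA differed. DESeq2's Wald test called 0 as well, with 18 at an unadjusted p under 0.05. The same edgeR fit called 102 miRNAs (27%) for LPS against unstimulated dendritic cells and 72 (19%) for LPS against unstimulated macrophages.

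The intervals show how large a mean difference over the 4 pairs the scatter between single libraries allows. They do not bound the difference in 1 culture, since opposite differences cancel in the mean. miR-19b-3p had a mean difference of 0.12. It stood at 717 against 309 CPM in wild type and 301 against 566 in knockout dendritic cells. Of the 134 miRNAs with a mean of at least 100 CPM in the 8 libraries, 132 had a 95% interval of the eLDL to LDL difference inside a 2-fold change either way, and 117 inside a 1.5-fold change. Over all 378 miRNAs the interval lay inside a 2-fold change for 273 (72.2%). For the rest, mostly low in reads, a 2-fold mean difference was not excluded with these libraries, and 5 of them had no usable SE.

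Within single pairs the abundant miRNAs lay close to equal levels. The SD of the log2 ratio of CPM (with 1 CPM added) over the 134 miRNAs was 0.27 in wild type dendritic cells, 0.29 in knockout dendritic cells, 0.29 in wild type macrophages and 0.18 in knockout macrophages. By comparison, the SD of the knockout to wild type log2 ratio over 133 abundant miRNAs was 0.40 in dendritic cells and 0.62 in macrophages under LDL, and 0.43 and 0.62 under eLDL. Only 4 ratios of the 4 pairs exceeded 2-fold: miR-221-5p, miR-19a-3p and miR-19b-3p in wild type dendritic cells and miR-652-3p in wild type macrophages, which were chosen for naming after their values were seen. Across the 134 miRNAs the log2 ratios of the wild type and knockout pairs correlated at a Pearson r of -0.25 in dendritic cells and -0.15 in macrophages, those of the 2 wild type pairs at 0.21 and those of the 2 knockout pairs at 0.36. Wild type dendritic cells with knockout macrophages gave -0.35, and knockout dendritic cells with wild type macrophages 0.00. These are correlations across miRNAs, between pairs that share no library, given as a description only.

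**Figure D1:**
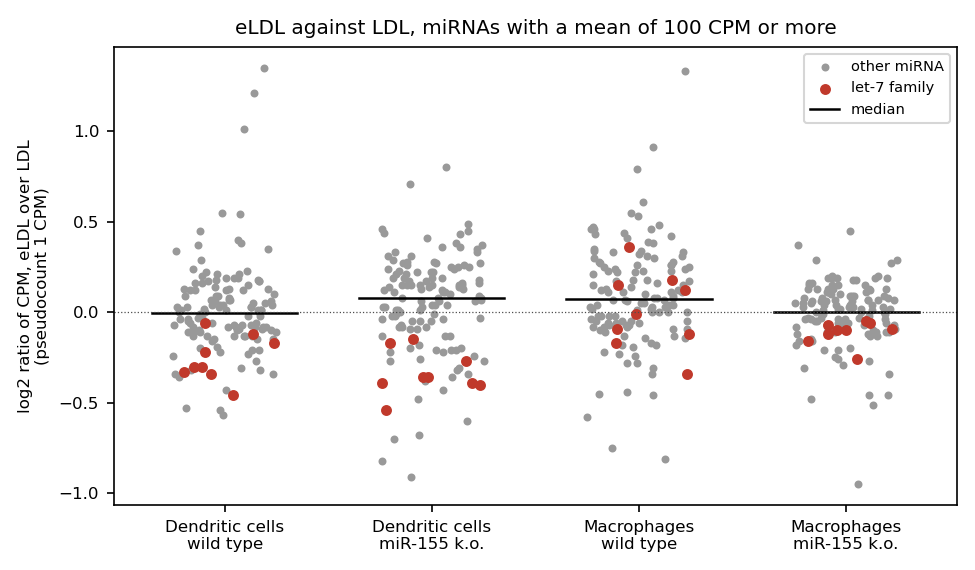
Each point is 1 of the 134 miRNAs with a mean of at least 100 CPM, at its log2 ratio of CPM under eLDL over LDL in 1 culture (y axis, 1 CPM added), with the let-7 family in red and the median of all as a line. The medians lie at 0.00, 0.08, 0.08 and 0.00, all 9 let-7 points lie below 0 in both dendritic cell pairs and in the knockout macrophage pair, and 5 of 9 do so in all 4 cultures.

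The let-7 family took a smaller share of miRNA reads under eLDL than under LDL in each of the 4 cultures. In wild type dendritic cells it made up 17.8% of miRNA reads under eLDL and 20.7% under LDL, and in knockout dendritic cells 18.7% and 23.4%. In wild type macrophages the shares were 10.4% and 11.0%, and in knockout macrophages 13.3% and 14.1%. The log2 differences were -0.22, -0.32, -0.07 and -0.08, so the dendritic cell pairs differed more than the macrophage pairs, and that contrast was not tested for the sum. Unstimulated cells do not sit on one side of these values: their share was 18.7%, 26.4%, 12.9% and 12.4% in the same order.

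By member, the 9 tested miRNAs of the family (10 listed) had fitted log2 differences from -0.29 to -0.06 over the 4 pairs, with a median of -0.13 beside 0.06 for all 378 miRNAs. None passed the test. By CPM, 5 of 9 were lower in every pair (let-7a-5p, let-7e-5p, let-7f-5p, let-7g-5p and miR-98-5p), where 5.56% of all tested miRNAs were. In dendritic cells 9 of 9 were lower in both pairs (23% of all tested), and in macrophages 5 of 9 (20.1%). These counts are a description and not a test. The family is shown first because of these same values, and its members share the same 8 libraries. The sign of all 9 differences over the 4 pairs was negative under all 4 scalings tried, as it was in dendritic cells, while in macrophages 5 to 8 of 9 were negative, depending on the scaling. Without the knockout macrophage LDL library 7 of 9 were below 0 over the 4 pairs, and in macrophages 3 of 9 were, with a median of 0.01. Without the wild type macrophage eLDL library the macrophage median was -0.01.

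let-7g-5p, from a hairpin in an intron of Wdr82 (GRCm38 chr9:106178840-106178927, plus strand), had the lowest value of the family. It stood at 10900 CPM under eLDL and 15027 under LDL in wild type dendritic cells, and at 11428 and 16605 in knockout dendritic cells. The macrophage levels were 8923 and 9466 CPM in the wild type and 10955 and 12201 in the knockout. The eLDL library was the lower one of each pair, by more in dendritic cells than in macrophages. Over the 4 pairs the fitted log2 difference was -0.29 ± 0.14 (SE; adjusted p = 0.897 by edgeR), and in dendritic cells -0.41 ± 0.20. In a fit of the 8 libraries alone, which has 2 residual degrees of freedom, let-7g-5p passed the test at -0.37 ± 0.09 (adjusted p = 0.0225 by edgeR).

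let-7a-5p, read from hairpins on chromosomes 13 and 9, stood at 41499 against 52621 CPM in wild type dendritic cells and 44191 against 56607 in knockout dendritic cells. In macrophages the level was 19660 against 21332 and 27517 against 29431 CPM. let-7f-5p was the most abundant of the family, at 63968 against 66458 CPM in wild type dendritic cells, 67734 against 81637 in knockout dendritic cells, 45272 against 50812 in wild type macrophages and 65777 against 68469 in knockout macrophages.

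**Figure D2:**
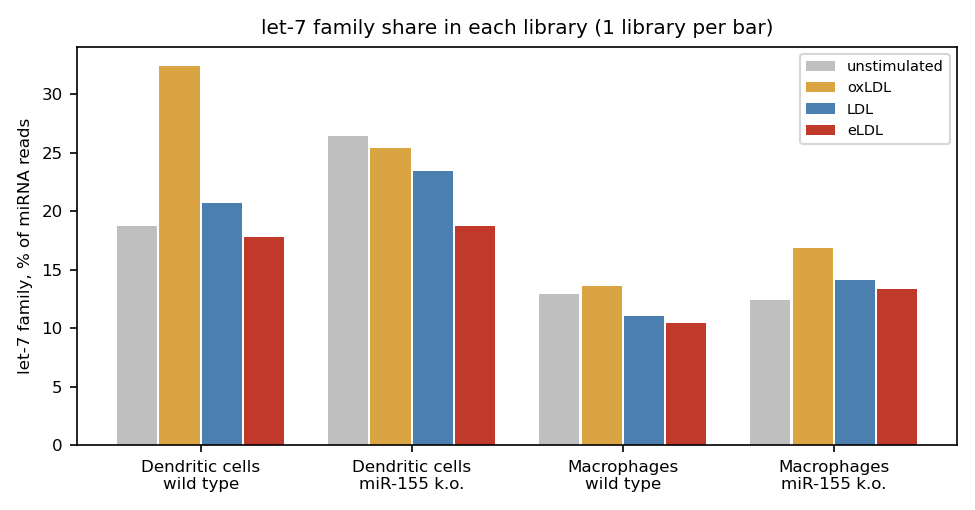
Bars give the summed let-7 family as a percentage of miRNA reads in 1 library each, for unstimulated, oxLDL, LDL and eLDL cells of each culture. The eLDL bar is the lowest of the 3 lipoprotein bars in all 4 cultures, from 17.8% against 20.7% (LDL) and 32.4% (oxLDL) in wild type dendritic cells to 13.3% against 14.1% and 16.8% in knockout macrophages.

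Outside this family, the miRNAs named here are the 5 each way with the smallest unadjusted p among those with at least 50 reads on average and the same direction in every pair, a choice that fixes their direction. By CPM, 34 of 378 miRNAs (8.99%) were higher under eLDL in every pair and 21 (5.56%) lower. Those at the higher end were miR-3470b-5p, miR-425-3p, miR-6240-3p, miR-450a-5p and miR-148b-3p. miR-425-3p, the arm opposite miR-425-5p in a hairpin within an exon of 4833445I07Rik, stood at 111, 121, 187 and 209 CPM under eLDL and 96.7, 85.9, 168 and 194 under LDL, in the order wild type and knockout dendritic cells, then wild type and knockout macrophages. Every eLDL value exceeded its LDL partner, while the values of the cultures overlapped. The fitted log2 difference was 0.26 ± 0.09 (SE; adjusted p = 0.869 by edgeR). The more abundant arm miR-425-5p stood at 223, 234, 364 and 431 CPM under eLDL and 247, 183, 381 and 439 under LDL. It was higher under eLDL only in knockout dendritic cells.

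miR-6240-3p, an arm set by the predicted fold since RefSeq gives no mature sequence for it, stood at 941, 658, 781 and 823 CPM under eLDL and 689, 402, 576 and 761 under LDL, and its fitted difference was 0.45 ± 0.16. miR-148b-3p, from a hairpin in an intron of Copz1, stood at 2845, 2481, 6403 and 6394 CPM under eLDL and 2773, 2170, 5195 and 6154 under LDL, a fitted difference of 0.17 ± 0.08. The other arm of the same hairpin, miR-148b-5p, was on the other side, at 22.1, 18.8, 33.3 and 31.7 CPM under eLDL and 37.9, 21.2, 33.8 and 38.8 under LDL (-0.30 ± 0.15). miR-148b-3p shares its seed CAGUGCA with miR-148a-3p and miR-152-3p, and the 3 had differences from 0.06 to 0.17. miR-450a-5p (0.69 ± 0.27) and miR-3470b-5p (0.93 ± 0.30) had few reads, 29 to 83 and 43 to 145 in a library.

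At the lower end, beside let-7g-5p and miR-148b-5p, were miR-18a-5p, miR-338-5p and miR-7a-5p. miR-18a-5p is cut from the oncogenic miR-17-92 transcript (Mir17hg, chromosome 14), whose hairpins also hold miR-19a and miR-19b-1. It stood at 35.5, 22.9, 29.99 and 33.9 CPM under eLDL and 35.6, 31.5, 42.5 and 49.8 under LDL, so the wild type dendritic cell pair was equal within counting error and the other 3 pairs were lower. The fitted difference was -0.35 ± 0.15. Of the 16 tested members of the miR-17-92 cluster and its paralogs, 4 were lower and 0 higher in every pair (5.56% and 8.99% of all tested), and their median difference was 0.07, beside 0.06 for all miRNAs. miR-7a-5p, from a hairpin in an intron of Hnrnpk and a copy on chromosome 7, stood at 967, 1273, 713 and 860 CPM under eLDL and 1013, 1657, 969 and 1051 under LDL (-0.28 ± 0.17). The other arm of the Hnrnpk hairpin, miR-7a-1-3p, had few reads and was on the other side in every pair. It stood at 9.47, 10.9, 6.68 and 6.53 CPM under eLDL and 5.6, 9.48, 5.86 and 5.65 under LDL. miR-338-5p, from an intron of Aatk, had 41 to 143 reads in a library and a difference of -0.43 ± 0.23.

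**Figure D3:**
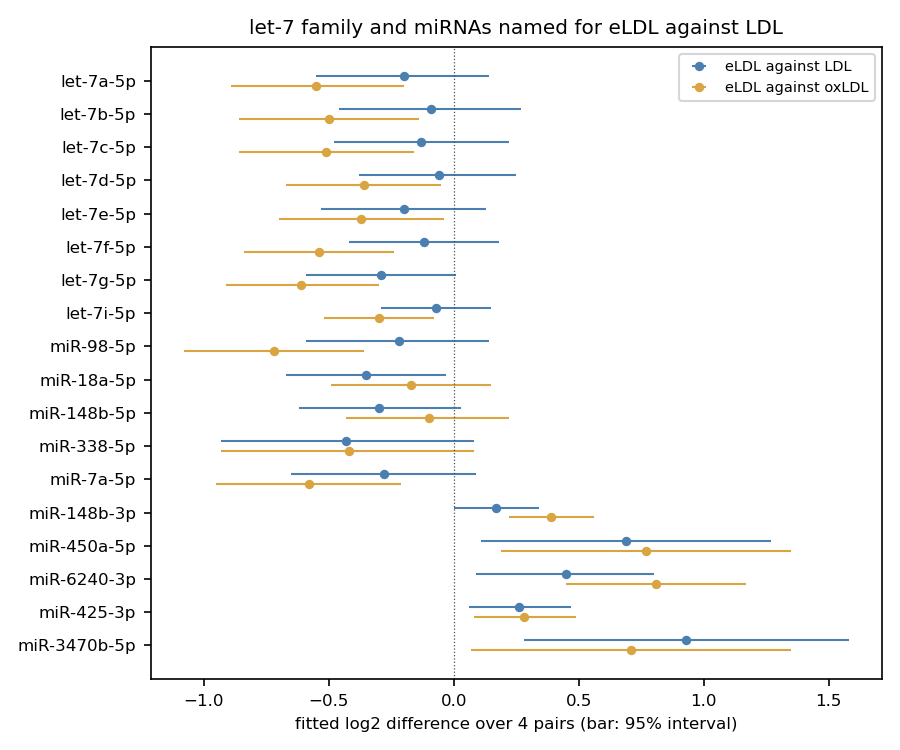
Points give the fitted log2 difference over the 4 pairs (x axis) and bars its 95% interval, for eLDL against LDL (blue) and eLDL against oxLDL (orange), for the let-7 family and the miRNAs named for eLDL against LDL. The 2 comparisons share the eLDL libraries. All 9 let-7 points lie below 0 in both, from -0.29 to -0.06 against LDL and from -0.72 to -0.30 against oxLDL.

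In dendritic cells alone, where 26.5% of all tested miRNAs were higher and 23% lower in both pairs by CPM, 0 of 378 (0%) were called by edgeR, the smallest adjusted p was 0.571, and 29 (7.67%) had an unadjusted p under 0.05, 25 of them higher. DESeq2's Wald test called 0, with 19 at an unadjusted p under 0.05. The median log2 difference of all miRNAs was 0.14 under TMM scaling and 0.04, -0.02 and 0.04 under scaling to total miRNA reads, upper quartiles and DESeq2's size factors, so values near 0.14 lie at the middle of the distribution. Of the 134 abundant miRNAs, 87 had a 95% interval inside a 1.5-fold change. Higher at the smallest p were miR-425-3p (0.44 ± 0.13), miR-330-5p (0.66 ± 0.20), miR-6240-3p (0.67 ± 0.23), miR-16-5p (0.28 ± 0.10) and miR-181a-1-3p (0.34 ± 0.12). miR-16-5p, a miRNA known to repress cyclins and BCL2, stood at 13664 against 13199 CPM in the wild type and 14434 against 11521 in the knockout. The lower ones were let-7g-5p, miR-148b-5p, miR-7068-3p (-0.53 ± 0.33), miR-6516-5p (-0.54 ± 0.38) and miR-677-5p (-0.36 ± 0.27).

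In macrophages alone, where 30.4% of all tested miRNAs were higher and 20.1% lower in both pairs by CPM, 0 of 378 (0%) were called by edgeR, the smallest adjusted p was 0.737, and 9 (2.38%) had an unadjusted p under 0.05, 5 higher and 4 lower. DESeq2's Wald test called 0, with 10 at an unadjusted p under 0.05. Of the abundant miRNAs, 128 had a 95% interval inside a 2-fold change and 101 inside a 1.5-fold change. miR-322-3p and miR-322-5p, the arms of the mouse counterpart of miR-424 that is known to act in monocyte differentiation, were both lower in both pairs. miR-322-5p stood at 36.7 against 45.2 CPM in the wild type and 31.3 against 36.6 in the knockout (-0.32 ± 0.16), and miR-322-3p at 12.3 against 14.7 and 7.64 against 16.6 CPM (-0.76 ± 0.29). In dendritic cells the values of both arms lay on the other side (0.21 ± 0.16 and 0.31 ± 0.27). miR-450a-5p, whose hairpins lie within the same stretch of the X chromosome, was higher in both macrophage pairs, 12.7 against 6.11 and 6.25 against 4.20 CPM (0.79 ± 0.38). miR-18a-5p was lower (-0.58 ± 0.21), as were miR-128-3p (-0.33 ± 0.16) and miR-7043-3p (-0.67 ± 0.32). miR-3470a-5p (1.27 ± 0.46), miR-5099-3p (0.63 ± 0.23) and miR-574-3p (0.89 ± 0.35) were higher, miR-574-3p at 28.6 against 16.6 and 10.3 against 4.20 CPM.

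Whether the difference between eLDL and LDL itself differed between macrophages and dendritic cells was tested in the same fit. By edgeR 0 of 378 miRNAs (0%) were called, with a smallest adjusted p of 0.669 and 22 (5.82%) at an unadjusted p under 0.05, 17 of them with the lower value in macrophages. The median of this contrast over all miRNAs was -0.14 under TMM scaling, while under scaling to total miRNA reads the medians of both cell types were 0.04. DESeq2's Wald test called 0, with 21 at an unadjusted p under 0.05. The intervals were wide here, inside a 2-fold change for 112 of the 134 abundant miRNAs and inside a 1.5-fold change for 52.

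The fit that let the response differ between genotypes had 4 residual degrees of freedom. By edgeR 0 of 378 miRNAs (0%) were called for knockout minus wild type, 14 (3.7%) had an unadjusted p under 0.05, and the smallest adjusted p was 0.0719, for miR-221-5p. DESeq2's Wald test called 4: miR-221-5p, miR-342-5p, miR-19a-3p and miR-19b-3p. They are named here after their values were seen. miR-221-5p, the arm opposite miR-221-3p in a hairpin on the X chromosome (GRCm38 chrX:19146294-19146388, minus strand), was higher under eLDL in both wild type pairs and lower in both knockout pairs. It stood at 2691 against 1054 CPM in wild type dendritic cells and 216 against 115 in wild type macrophages. In the knockout it stood at 1253 against 1742 CPM in dendritic cells and 155.5 against 214 in macrophages. The fitted knockout minus wild type difference was -1.66 ± 0.26 on the log2 scale (95% interval -2.26 to -1.06).

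The level of miR-221-5p in wild type dendritic cells under eLDL was the highest of its 20 libraries. In the other libraries of that culture it stood at 841 to 1458 CPM. Its partner arm miR-221-3p stood at 11834 against 12633 CPM in wild type and 13679 against 14979 in knockout dendritic cells, and its difference of differences was -0.22 ± 0.23. miR-222-3p, which shares the seed GCUACAU with miR-221-3p, had a value of -0.62 ± 0.24 (adjusted p = 0.98 by edgeR).

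The other 3 miRNAs had the same direction as miR-221-5p in each of the 4 pairs. miR-342-5p, from an intron of Evl, stood at 123 against 59.5 and 74.9 against 45.6 CPM in the wild type and 123 against 137 and 40.0 against 60.1 in the knockout, a difference of differences of -1.30 ± 0.23 (adjusted p = 0.0781 by edgeR). Its far more abundant partner arm miR-342-3p stood at 2472 against 2188 and 1986 against 1839 CPM in the wild type. In the knockout that arm stood at 3542 against 3508 and 1980 against 2021 CPM. miR-19a-3p stood at 170 against 83.6 and 191 against 139 CPM in the wild type and 74.3 against 132 and 136 against 190 in the knockout (-1.45 ± 0.37, adjusted p = 0.529 by edgeR). miR-19b-3p stood at 717 against 309 and 807 against 582 CPM in the wild type and 301 against 566 and 639 against 911 in the knockout (-1.60 ± 0.44, adjusted p = 0.622 by edgeR). All 4 miRNAs called by DESeq2's Wald test were higher in both wild type and lower in both knockout pairs. They were chosen for a difference between the genotypes, which favours such a pattern without fixing the direction in each pair. Of all 378 tested miRNAs, 22 (5.82%) had this pattern and 25 (6.61%) the opposite one. The miR-19 genes lie with miR-18a in Mir17hg or its X-linked paralog. miR-18a-5p had a value of -0.30 ± 0.31.

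The shares of the longer reads, 24 to 29 nt and 30 to 34 nt, moved with the same contrast. They were higher under eLDL in both wild type pairs and lower in both knockout pairs. The share of reads of 18 to 20 nt had no such pattern. Reads of 30 to 34 nt made up 1.2% of the eLDL against 0.2% of the LDL library in wild type dendritic cells and 1.6% against 0.4% in wild type macrophages. In the knockout they made up 0.2% against 0.3% and 0.9% against 2.2%. Reads of 24 to 29 nt were 25.1% against 17.7% and 30.1% against 28.3% in the wild type, and 19.8% against 21% and 29.2% against 31.4% in the knockout. Reads of 18 to 20 nt were 16.6% against 19.3% and 16.5% against 12.4% in the wild type. In the knockout they were 17.9% against 14.1% and 16.3% against 13.9%. Reads longer than 20 and shorter than 24 nt were 57.1% against 62.9% and 51.7% against 58.8% in the wild type. In the knockout they were 62.1% against 64.6% and 53.6% against 52.5%. Their share fell in both wild type pairs, while in the knockout it fell less in dendritic cells and rose in macrophages. The difference between genotypes thus had the same direction in both cell types, opposite to that of the longer reads. The mature form of miR-221-5p has 26 nt, which is also the longest read counted, so its mean lengths are capped. Its reads averaged 25.57 nt under eLDL and 25.26 under LDL in wild type dendritic cells, and 25.30 and 25.43 nt in the knockout. In macrophages the averages were 25.37 and 25.35 nt in the wild type and 25.18 and 25.24 nt in the knockout. miR-342-5p averaged 24.86 against 24.37 nt in wild type and 24.36 against 24.52 in knockout dendritic cells, and 24.50 against 24.41 and 23.85 against 23.84 nt in macrophages. miR-19a-3p and miR-19b-3p averaged 21.87 to 22.10 nt in all 8 libraries. Such shifts were not confined to these miRNAs. In dendritic cells miR-18a-5p, not called for the genotype difference, differed by 0.50 nt in the wild type and -0.15 nt in the knockout, and let-7g-5p by 0.00 and -0.01 nt. The part of library read length in the genotype values was not tested.

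**Figure D4:**
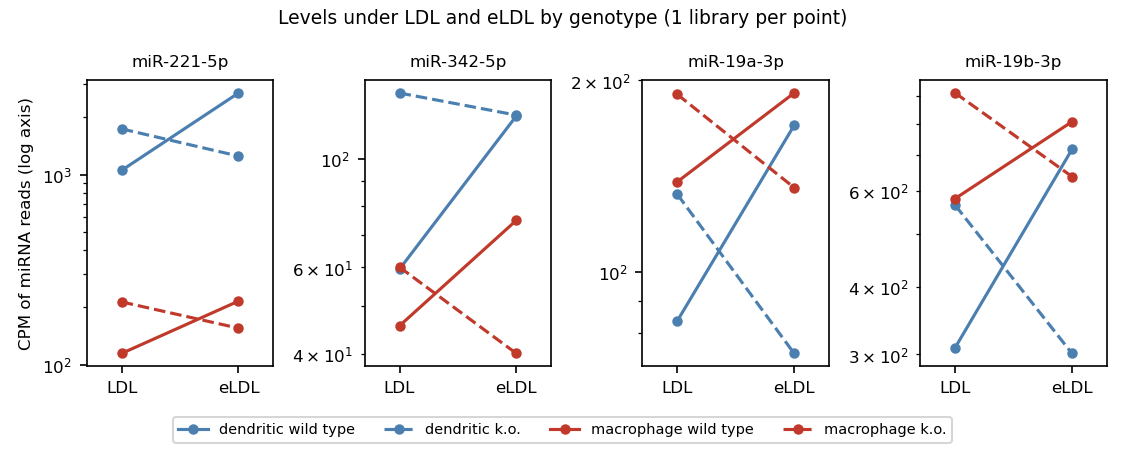
Each panel gives the CPM of 1 miRNA (log axis, scaled per panel) under LDL and eLDL, joined by a line per culture, solid for wild type and dashed for miR-155 knockout, with 1 library per point. In all 4 panels both solid lines slope up and both dashed lines slope down, as for miR-221-5p at 1054 to 2691 CPM in wild type and 1742 to 1253 CPM in knockout dendritic cells.

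miR-155, the deleted gene, checks the genotype labels, but not the eLDL and LDL labels. miR-155-5p had 2 and 4 reads in the knockout dendritic cell libraries under eLDL and LDL and 35 and 33 in the knockout macrophage libraries, against 1730 to 314861 reads in the wild type. Wild type macrophages held 27239 CPM of it under eLDL and 26726 under LDL, a ratio of 1.02 (95% counting interval 1.01 to 1.03), where unstimulated cells had 5349 and LPS-treated cells 39830. In wild type dendritic cells it stood at 341 against 431 CPM, a ratio of 0.792 (0.746 to 0.840), between 129 in unstimulated and 9590 in LPS-treated cells. The passenger arm miR-155-3p stood at 146 against 185 CPM in wild type macrophages, and had 8 and 4 reads in wild type dendritic cells and 0 in the knockout. With 1 wild type library per condition these ratios have no replicate check, and their intervals cover counting error only.

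Of the miRNAs known to act in lipid handling, 19 of 26 listed were tested and 0 were called by edgeR for eLDL against LDL, in either cell type or over the 4 pairs. Over the 4 pairs their median difference was 0.11, beside 0.06 for all miRNAs, 1 was higher in every pair and 0 lower (8.99% and 5.56% of all tested). miR-33-5p, which lies in an intron of Srebf2 and represses ABCA1, stood at 14.8, 13.9, 27.2 and 38.8 CPM under eLDL and 14.9, 13.5, 19.9 and 32.9 under LDL (0.20 ± 0.22). The dendritic cell pairs were equal within counting error. Both macrophage pairs were on the higher side, but the knockout one (279 against 227 reads, a ratio of 1.18) was also within counting error. miR-148a-3p, known to repress the LDL receptor, had a difference of 0.06 ± 0.09, miR-27b-3p 0.16 ± 0.09, and miR-223-3p 0.11 ± 0.09.

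Of the miRNAs known to be induced in inflammation, 26 of 27 listed were tested, 0 were called, 3 were higher and 2 lower in every pair (8.99% and 5.56% of all tested), and the median was 0.00, beside 0.06 for all miRNAs. miR-146b-5p, the most abundant miRNA of the macrophages, stood at 266553 against 252079 CPM in wild type and 255818 against 262244 in knockout macrophages (-0.03 ± 0.11). In dendritic cells it was far lower and stood at 8317 against 8160 and 17442 against 14236 CPM (0.26 ± 0.11). miR-146a-5p, a feedback repressor of Toll-like receptor signalling, had a difference of 0.00 ± 0.15 over the 4 pairs. miR-99b-5p was higher in every pair (0.20 ± 0.10), and its cluster partner let-7e-5p lower in every pair (-0.20 ± 0.15), while the next arm of that transcript, miR-125a-5p, had -0.17 ± 0.17.

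Myeloid differentiation miRNAs (18 of 21 listed tested) had a median difference of 0.08, stress and p53 miRNAs (6 of 14) 0.09, the miR-29 family (7 of 7) 0.08, the miR-30 family (7 of 7) 0.09, the miR-181 family (8 of 8) 0.07, the miR-23, miR-27 and miR-24 clusters (11 of 11) 0.11, the miR-183, miR-96 and miR-182 cluster (3 of 6) 0.10, and the miR-99b, let-7e and miR-125a cluster (6 of 6) -0.08. None of their members was called by edgeR. In dendritic cells 3 of the 11 miR-23, miR-27 and miR-24 members had an unadjusted p under 0.05 (7.67% of all tested), among them miR-23a-3p (0.28 ± 0.12) and miR-23b-3p (0.28 ± 0.11), which are known to share a seed. The median of all miRNAs there was 0.14, and with scaling to total miRNA reads both values were 0.18 and that median 0.04.

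miR-21a-5p led all 4 dendritic cell libraries, with 24.9% to 26.9% of miRNA reads, and miR-146b-5p led all 4 macrophage libraries, with 25.2% to 26.7%. miR-21a-5p, known to repress PDCD4, stood at 266089 against 263933 CPM in wild type and 268540 against 249454 in knockout dendritic cells. Macrophages held 91612 against 137206 CPM in the wild type, a ratio of 0.668, and 131609 against 129563 in the knockout. Over the 4 pairs the fitted difference was -0.07 ± 0.13. Of the other 8 most abundant miRNAs, let-7a-5p and let-7f-5p are described above, and miR-181a-5p, miR-10a-5p, miR-92a-3p, miR-191-5p, miR-27b-3p and miR-22-3p had differences from 0.06 to 0.19. miR-191-5p and miR-22-3p were higher in every pair.

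The reads of the 10 most abundant miRNAs kept their lengths within 0.11 nt. Mean lengths under eLDL minus LDL ranged from 0.01 to 0.04 nt in wild type dendritic cells, from -0.02 to 0.11 in the knockout, from -0.07 to 0.00 in wild type macrophages and from -0.03 to 0.00 in the knockout. The 9 let-7 miRNAs differed by -0.18 to 0.05 nt. At let-7g-5p, 95.6% to 97.0% of reads under eLDL and 96% to 97.2% under LDL started at the most read 5′ end.

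The nearest other preparation is oxLDL, and the comparison of eLDL with it shares the eLDL libraries with the one above. By edgeR 0 of 378 miRNAs (0%) were called, 58 (15.3%) had an unadjusted p under 0.05, 35 higher and 23 lower, and the smallest adjusted p was 0.0535. DESeq2's Wald test called 15, 4 higher and 11 lower under eLDL, and fits without single libraries called 0 to 16, the 16 without the knockout dendritic cell oxLDL library. The smallest p belonged to miR-6240-3p (0.81 ± 0.17) and miR-148b-3p (0.39 ± 0.08), which were also higher than in LDL in every pair. miR-148b-3p stood at 2193, 2105, 4267 and 5120 CPM under oxLDL, each below its eLDL partner, and miR-6240-3p at 260, 385, 670 and 598 CPM.

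The let-7 family had its lower values in this comparison as well. All 9 members were lower under eLDL than under oxLDL in every pair (10.1% of all tested miRNAs were), all 9 had an unadjusted p under 0.05 (15.3% of all, either direction), and the median log2 difference was -0.51, beside 0.07 for all miRNAs. None passed the test by edgeR, while DESeq2's Wald test called 7 of 9. The 9 members share the same libraries, so their counts are not independent, and their joint direction was not tested. The oxLDL library of wild type dendritic cells stood apart, with the family at 32.4% of miRNA reads against 17.8% under eLDL, and without it the median was -0.35 with all 9 below 0. In the other cultures the family took 25.4%, 13.6% and 16.8% under oxLDL. miR-98-5p had the lowest value, -0.72 ± 0.17, and let-7g-5p -0.61 ± 0.14 (both adjusted p = 0.0663 by edgeR). miR-26b-5p had -0.44 ± 0.10 against oxLDL and -0.01 ± 0.10 against LDL, and miR-33-5p 0.69 ± 0.22 and 0.20 ± 0.22, each pair of values from comparisons that share the eLDL libraries. miR-7a-5p was at 2025, 1566, 1010 and 1093 CPM under oxLDL, above its eLDL partner in every culture (-0.58 ± 0.17).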

How the data were processed

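Small RNA libraries (Trizol RNA, TruSeq kit, per the labels' protocols) were deposited by the authors as raw counts of reads per distinct sequence of 18 to 45 nt. Per the submitters' processing notes, CASAVA 1.8.2 was used; adapter removal is not given in the sources used here. Exact matches of the 18 to 26 nt sequences to 1174 mouse miRNA hairpins of GENCODE M21 (GRCm38) were counted. Arms came from RefSeq mature positions (649 hairpins) or else from the loop predicted by RNAfold 2.7.2, and a read had to start within 2 nt of its arm's most read 5′ end. Reads of several miRNAs were divided equally (at most 0.27% of a library). Matches elsewhere in the genome were not checked, which bears most on miR-6240, miR-3470 and other hairpins with few or heterogeneous reads.

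Of 1229 detected miRNA arms, 378 reached 5 CPM in 2 or more of the 20 libraries and were tested. edgeR 4.0.16 (R 4.3.3; robust quasi-likelihood F test, TMM, Benjamini-Hochberg adjustment at 0.05) was fitted to all 20 libraries with terms for culture and for stimulus within cell type, which leaves 8 residual degrees of freedom. Pairing by culture is thus in the fit. DESeq2 1.42.0 was an alternative, beside other scalings, filters, library sets, read rules and leaving out each library in turn. SE is the difference divided by the root of F. The code was tested on simulated data. Named miRNAs were up to 12 each way called with at least 50 reads on average and one direction in every pair, filled to 5 each way by the smallest unadjusted p, with both miR-155 arms, list members and the 10 most abundant. The members and lists were chosen with earlier results of these data known.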

Additional observations from a re-analysis of the deposited data

How the results depend on the processing

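The counts of miRNAs called, 0 in each comparison, were recomputed under each alternative. For eLDL against LDL the fit to the 8 eLDL and LDL libraries alone (2 residual degrees of freedom) called 3 over the 4 pairs, 1 in dendritic cells, 2 in macrophages and 3 for macrophages minus dendritic cells. These were let-7g-5p, let-7c-1-3p, let-7e-3p and, for the last, miR-574-3p, where let-7c-1-3p and let-7e-3p were at 0 CPM in both macrophage eLDL libraries. The other alternatives, each library left out included, called 0 in these 4 comparisons. For knockout minus wild type, scaling to total miRNA reads, DESeq2's size factors in edgeR and leaving out reads of several miRNAs each called 1 (miR-221-5p, adjusted p = 0.0256, 0.0273 and 0.00596 by edgeR), no filter beyond 1 read called 3, DESeq2's Wald test 4, and fits without single libraries 0 to 3, the 3 without the wild type or the knockout macrophage eLDL library. For eLDL against oxLDL, scaling to total miRNA reads called 4, DESeq2's Wald test 15, no filter 13, a minimum of 50 CPM 7, the 12 lipoprotein libraries alone 12, leaving out reads of several miRNAs 7, any start within the arm 2, and fits without single libraries 0 to 16 (2 without the knockout macrophage eLDL library). The causes were not tested. Since the main fits called 0, none could change from called. No examined miRNA that an alternative called had the direction opposite to its main value. No paired analysis by replicate number was possible because each condition is 1 library. For eLDL against LDL over the 4 pairs, 273 of 378 miRNAs had an interval inside a 2-fold change. The rest were mostly low in reads, and the part of depth in this was not tested.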
